A study of Homo sapiens with 8 samples.

Results

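Cancer cells can make some of the cytokines that keep T cells, NK cells, B cells and macrophages alive. The text below follows 8 genes, for such cytokines, a receptor chain, a decoy and cytokine subunits, through a treatment with interferon gamma (IFN-gamma). The genes are IL15, IL15RA, IL7, IL18BP, TNFSF13B, CSF1, IL12A and EBI3. They were chosen by gene symbol from a table of 24462 symbols, all 8 are in it, and each is a single row. The choice was made with earlier results of these data known. The libraries came from 4 human cancer cell lines, 549 and H1703 from lung cancer, A375 from skin and A498 from kidney, each grown without treatment or with recombinant human IFN-gamma at 20 ng/ml for 72 hours. Each line gave 1 untreated and 1 treated library, so there are 8 libraries, a line has no replicate of its own, and the 4 lines stand as the replicates of an arm. All lines shared RPMI medium with serum, and no other agent is named.

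IFN-gamma acts on many genes through a palindromic DNA element called GAS. It also induces IRF1, a transcription factor that binds a second element, the ISRE. IL-15 and IL-7 are survival cytokines that signal through receptors sharing the common gamma chain. IL-15 is unusual in being shown to lymphocytes on the surface of the producing cell by its own high-affinity receptor chain, IL15RA. IL18BP is a secreted decoy that neutralises IL-18. TNFSF13B encodes BAFF, a survival factor of B cells, and CSF1 encodes the growth factor of macrophages. IL12A and EBI3 encode subunits of paired cytokines: IL12A pairs with IL12B as IL-12 or with EBI3 as IL-35, and EBI3 pairs with IL27 as IL-27.

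RefSeq promoter windows (GRCh38.p14, 250 bases before to 50 after an annotated start) were at hand for 5 of the 8 genes, in 12 windows. They were searched on both strands for GAS (TTCNNNGAA), an ISRE core (GAAANNGAA), the shorter IRF core (AANNGAAA), which can overlap the ISRE core, and an NF-kB motif (GGGNNTTCC). IL15RA and IL18BP held both a GAS and an ISRE core, TNFSF13B and IL12A an ISRE core but no GAS, and EBI3 neither of these but 2 NF-kB matches. The IRF core was found wherever the ISRE core was, overlapping it, and TNFSF13B also held an IRF core away from its ISRE core, at -94 from its first start on the opposite strand. All 250 bases before each IL18BP start lie in annotated exons of that gene. In IL15RA the GAS, at -127 from start 1, and the ISRE core, at -62 from start 4, are in windows of different starts. Both lie in annotated exons of IL15RA, and the ISRE core of TNFSF13B, at -71 from start 2, lies in an annotated exon of TNFSF13B. The ISRE core lies past the start for IL12A (at 3), for start 2 of IL15RA (at 7) and for start 1 of TNFSF13B (at 19). Of 35116 windows of the same length, 7.66% held the GAS letters, 8.11% the ISRE core, 22.8% the IRF core and 6.58% the NF-kB letters. Counted by gene, the shares were 9.38%, 9.86%, 26.7% and 7.95%. IL15RA and IL18BP have 4 windows each and TNFSF13B has 2, which gives them more chances of a match. A match describes the letters and is not a bound site. Whether a match bears on how a gene moved was not tested. The stretches that hold the matches are shown with the match in capitals, all 5′ to 3′ on the strand of the gene. The first is at chr10:5978157-5978181, the second at chr10:5977589-5977613, both on the minus strand. The IL18BP stretches are at chr11:71999542-71999566 and chr11:71999572-71999596, TNFSF13B is at chr13:108269639-108269663, IL12A at chr3:159988829-159988853, and the longer EBI3 stretch at chr19:4229273-4229497, all on the plus strand.
IL15RA GAS: agcaggaaTTCGGCGAAgtggcgga
IL15RA ISRE core: gcaaaagcGAAAGCGAAtgcgactg
IL18BP ISRE core: taaaaagtGAAAGTGAAatagaggg
IL18BP GAS: gcagtgctTTCCCAGAAggattgct
TNFSF13B ISRE core: caaaaactGAAAGTGAAatgaggaa
IL12A ISRE core, on the opposite strand: gcgaacatTTCGCTTTCattttggg
EBI3 NF-kB: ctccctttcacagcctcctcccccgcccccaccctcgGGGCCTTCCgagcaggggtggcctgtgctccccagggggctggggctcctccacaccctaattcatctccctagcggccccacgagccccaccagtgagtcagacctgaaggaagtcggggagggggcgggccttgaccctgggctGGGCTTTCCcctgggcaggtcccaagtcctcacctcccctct
The IL18BP and TNFSF13B cores share the letters GAAAGTGAA, and IL15RA and IL12A share GAAAGCGAA when the IL12A stretch is read on the opposite strand. The IL18BP start with the ISRE core at -67 has a second GAS, with the same 9 letters as the GAS shown, at -7.

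**Figure D1:**
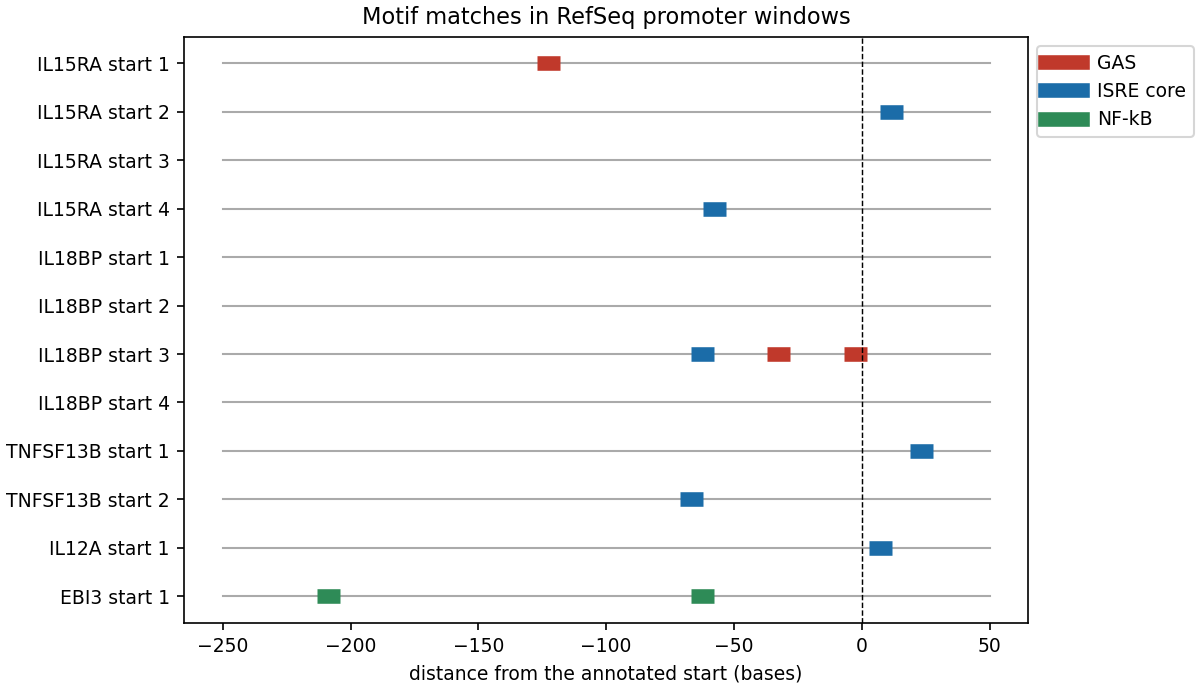
Motif matches in the promoter windows of IL15RA, IL18BP, TNFSF13B, IL12A and EBI3, with 1 row for each annotated start; the x axis is the distance from that start in bases and coloured blocks are the matches. Starts 2 and 4 of IL15RA, and starts 1 and 2 of TNFSF13B, show the same ISRE core seen from different starts, and start 3 of IL18BP carries an ISRE core and 2 GAS matches.

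Total counts per library ran from 6559933 to 9291154. IRF1, which responds to the cytokine, was higher in all 4 treated libraries: its counts went from 224 to 4256 in 549, from 145 to 6171 in A375, from 378 to 7933 in A498 and from 515 to 10579 in H1703. Lineage markers set A375 and A498 apart in part. SOX10, a melanocyte factor, had 3952 and 4269 counts in A375 and at most 9 elsewhere. With it, 6 melanocyte markers summed to 8318 and 4812 in A375 against at most 387 elsewhere, mostly from SOX10 and MITF. PMEL, MLANA and TYR had at most 28 counts in any library, and PMEL was lower in treated A375 (3) than in treated 549 (8). MITF in treated A375 was close to its count in untreated A498 (370). Of 5 renal markers, PAX8 had 1552 and 2097 counts in A498 and at most 47 elsewhere, and PAX2 and CDH6 were also highest there. LHX1 was highest in treated H1703 (362), and CA9 was higher in 549 (320 and 185) than in A498 (22 and 25). Of 5 lung markers, EPCAM had 108 counts in untreated 549, 13 in treated 549 and 0 in H1703, and the others were near absent from both lung lines. NKX2-1 had 12 counts in each H1703 library, and 1 and 0 in 549, and the surfactant genes SFTPB and SFTPC had at most 2 in either line. Of 12 leukocyte markers, 4 (CD3D, CD3E, CD2 and MS4A1) were at 0 in all 8 libraries, and the 12 summed to between 6 and 56 counts a library. The sum went from 43 to 21 in 549, from 56 to 13 in A375, from 14 to 19 in A498 and from 7 to 6 in H1703, with CD14 highest in untreated 549 (32), PTPRC in untreated A375 (33) and ITGAM in treated A498 (13). Their part in the results below was not tested. In RNA from whole cultures, a larger share of producing cells and more RNA per cell cannot be told apart.

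The comparison of treated with untreated cells asked which of the 8 genes IFN-gamma changed across lines. IL15RA, IL18BP, TNFSF13B and CSF1 rose, and no gene fell. IL7 and IL15 were higher in each of the 4 treated libraries than in the untreated library of the same line but missed the threshold, EBI3 was not called, and IL12A had too few counts to be tested. Of the 8 genes, 7 passed the filter on low counts and 4 were called higher and 0 lower at a threshold of 0.05 on the adjusted p-value. The test was edgeR's quasi-likelihood test with cell line as a term, adjusted by Benjamini-Hochberg over 13457 genes. Of all genes tested, 1.92% were called, 1.59% as higher and 0.327% as lower. The median log2 change was 2.38 over the 7 genes and -0.02 over all genes. The filter asks for about 10 counts in as many libraries as an arm holds. IL18BP had fewer than 10 counts in every untreated library, so it passed through its treated libraries. IL15, IL15RA, IL7, TNFSF13B and EBI3 each had an untreated library under 10 counts and also needed treated libraries to pass. CSF1 alone had at least 10 in every untreated library. A share of called genes, or a median change, among genes that passed in this way is no support for a rise. An exact sign-flip permutation test of the 4 line pairs cannot give a two-sided p under 0.13, and it gave that p for the 6 genes that were higher in all 4 lines. Of all genes tested, 15% were higher in all 4. Fits below are edgeR log2 changes with their standard errors (SE, 4 lines), levels are counts scaled to library size (CPM) with TMM factors, and intervals on a ratio of 2 libraries are exact 95% binomial intervals that cover counting error only.

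**Figure D2:**
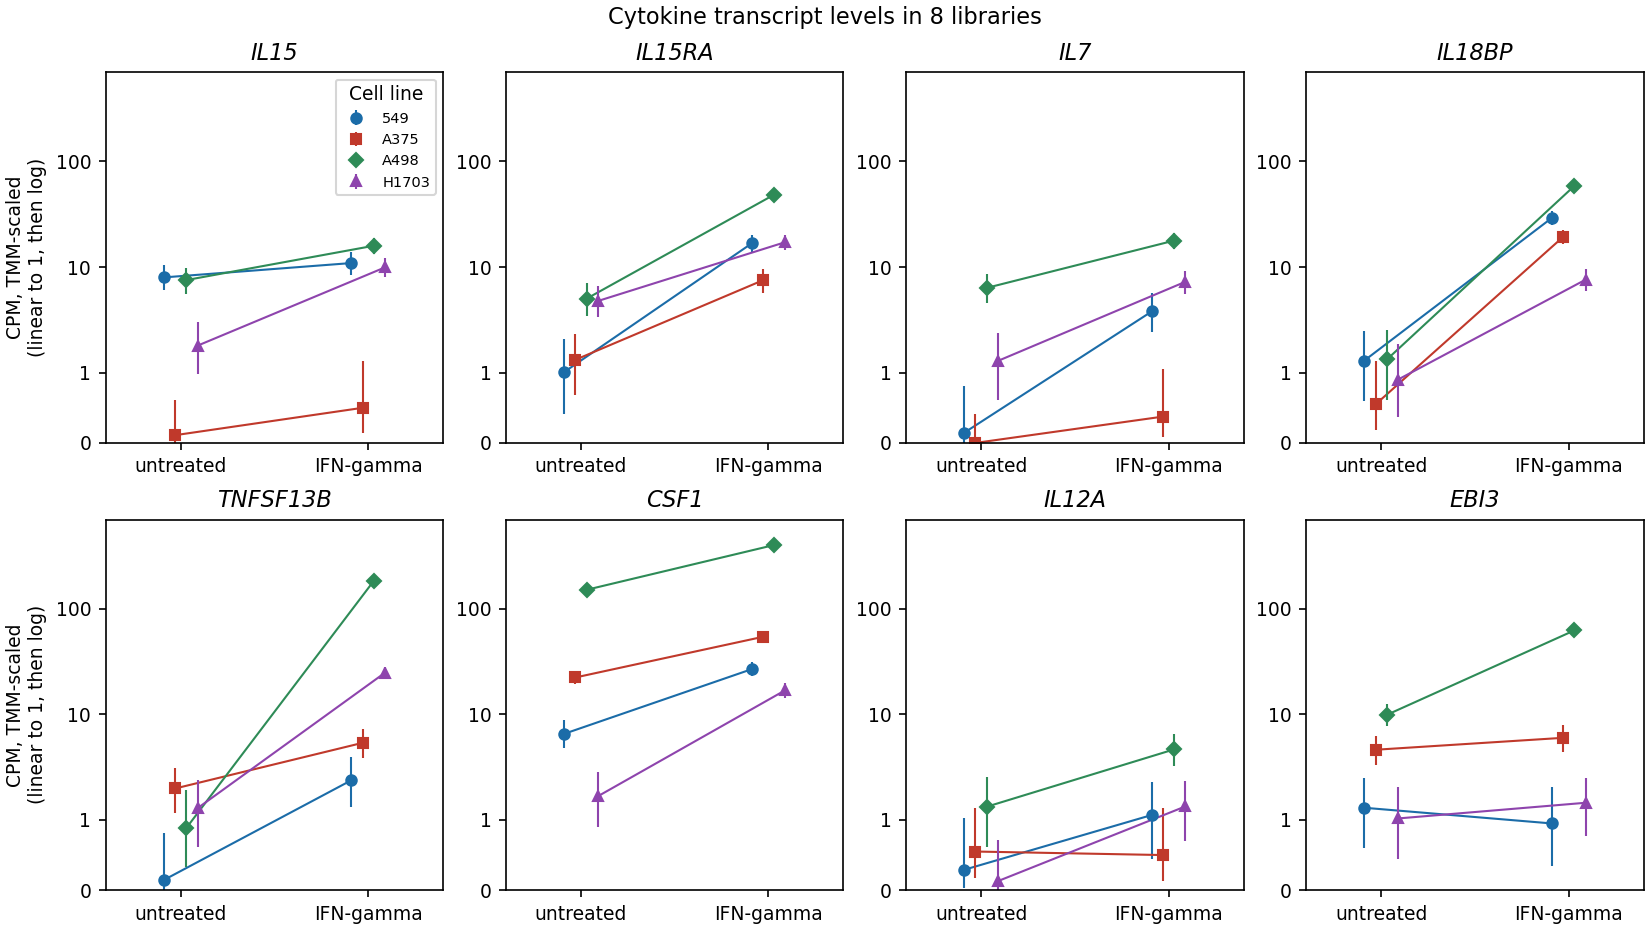
TMM-scaled CPM of the 8 genes (y axis, linear up to 1 and logarithmic above) in the untreated and treated library of each line, joined by a line; bars are exact 95% Poisson intervals of the count. IL15RA, IL18BP and TNFSF13B are the panels in which every treated point lies above every untreated point, and A375 lies lowest for IL15 and IL7 in both arms.

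IL15 itself differed least between the arms in 549 and most in H1703. Its counts went from 55 to 69 in 549, from 1 to 4 in A375, from 51 to 120 in A498 and from 14 to 89 in H1703. The treated and untreated ranges overlapped, because untreated 549 and A498, at 7.97 and 7.52 CPM, lay above both A375 libraries, at 0.11 and 0.499 CPM. The ratio was 5.51-fold in H1703 (3.12 to 10.5) and 2.12-fold in A498 (1.51 to 3.0), while the interval in 549, from 0.945 to 1.98, holds 1. In A375 the count of 1 gave a ratio of 4.54 with an interval from 0.45 to 224, so no change was detectable there at this depth. The log2 change over the lines was 1.31 ± 0.40, which edgeR did not call (adjusted p = 0.124). In the order of levels, untreated H1703 was separated by its counting interval from the next higher library, untreated A498, and each neighbouring pair from untreated A498 up to treated A498 overlapped.

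IL15RA, the chain that presents IL-15, rose. It had 7, 12, 34 and 37 counts in the untreated libraries of 549, A375, A498 and H1703, and 106, 60, 365 and 154 in the treated libraries. Every treated library, from 7.48 to 48.4 CPM, lay above every untreated library, from 1.01 to 5.01 CPM, which was so for 3 of the 8 genes and for 1.78% of all genes tested. The log2 change was 2.83 ± 0.36 (edgeR adjusted p = 0.00492), rank 85 of 13457 by size. Ratios ran from 3.61-fold in H1703 (2.51 to 5.32) to 16.5-fold in 549 (7.73 to 42.0). The lines were thus ordered differently for ligand and receptor chain, with H1703 having the largest log2 ratio for IL15 (2.31) and the smallest for IL15RA (1.80), although the fits of H1703 against the other lines called neither gene (edgeR adjusted p = 1.00 for both). The lowest treated level of both was in A375. GENCODE 29 places AL137186.2, of the same strand, over 151 exonic bases of IL15RA.

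The signalling chains that IL-15 uses on lymphocytes were scarce. IL2RB had 28 and 41 counts in A375 and at most 1 in any other library, and IL2RG, the common gamma chain, had at most 4 in any library. IL2, IL9 and IL21 were at 0 in all 8 libraries, and IL4 had a single count in 1 of them.

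IL7 had at most 1 count in untreated 549 and A375. It went from 1 to 24 counts in 549, from 0 to 3 in A375, from 43 to 134 in A498 and from 10 to 65 in H1703. A498 was highest in both arms, at 6.34 and 17.8 CPM, and untreated A498 lay above treated 549 and A375, so the arms overlapped. The ratio was 2.81-fold in A498 (1.98 to 4.05), 5.64-fold in H1703 (2.88 to 12.3) and 26.1-fold in 549, from a single count (4.26 to 1080). For A375 a treated count of 3 is too small to bound a rise. The log2 change was 2.38 ± 0.51 with an edgeR adjusted p of 0.0577. This gene sat at the threshold: limma-voom (adjusted p = 0.0385), DESeq2 (0.00161), edgeR's likelihood ratio test (0.00013), edgeR without a filter (0.00918) and the authors' log2 values with limma (0.0468) called it. IL7 shares 322 exonic bases in GENCODE 29 with ZC2HC1A on the opposite strand, whose counts went from 344 to 355 in 549, from 209 to 384 in A375, from 337 to 597 in A498 and from 207 to 217 in H1703 (log2 change 0.44 ± 0.22, edgeR adjusted p = 0.292), and 231 bases with the lncRNA AC083837.2. Whether counting used strand is not given in the sources used here. IL7R, the receptor of IL-7, went from 57 to 179 counts in H1703 and from 10 to 139 in A498, but from 9 to 1 in A375, and was at 0 in both 549 libraries (log2 change 1.59 ± 0.84, edgeR adjusted p = 0.314).

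IL18BP, the decoy of IL-18, rose from fewer than 10 counts in every untreated library. Its fitted change was the largest of the 7 genes tested, ahead of TNFSF13B, but TNFSF13B was larger with limma-voom (4.81 against 4.59), without A375 (5.92 against 4.49) and without the line term (5.62 against 4.80). It had 9, 5, 9 and 7 counts in the untreated libraries of 549, A375, A498 and H1703, and 185, 155, 442 and 68 in the treated libraries. The untreated libraries lay close together, from 0.549 to 1.33 CPM with overlapping counting intervals, whereas the treated ones, from 7.59 to 58.7 CPM, were each separated from the next by their intervals, in the order H1703, A375, 549, A498. The log2 change was 4.61 ± 0.39 (edgeR adjusted p = 0.000606), rank 22 of 13457. Ratios ran from 8.42-fold in H1703 (3.87 to 21.7) to 44.2-fold in A498 (23.1 to 97.3). The gene shares 675 exonic bases with NUMA1 on the opposite strand, and NUMA1 counts were lower in all 4 treated libraries, from 532 to 301 in 549, from 601 to 283 in A375, from 203 to 151 in A498 and from 433 to 358 in H1703 (log2 change -0.67 ± 0.17, edgeR adjusted p = 0.0869), the direction opposite to that of IL18BP. IL18, the cytokine that the decoy binds, went from 473 to 612 counts in 549, from 156 to 403 in A498, from 129 to 162 in H1703 and from 3 to 0 in A375 (log2 change 0.53 ± 0.32, edgeR adjusted p = 0.376). In treated A375 the decoy had 155 counts and the cytokine 0, but levels are not compared between these genes.

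TNFSF13B, which encodes BAFF, varied most between lines in its ratio and in its treated level (77.6-fold). Its untreated level varied 13.6-fold, less than that of CSF1 (90.3-fold) or IL15 (72.6-fold). Its counts went from 1 to 15 in 549, from 18 to 43 in A375, from 6 to 1385 in A498 and from 10 to 222 in H1703. A375 was the highest untreated library, at 1.98 CPM, and the second lowest treated one, at 5.36 CPM, and no treated library fell below an untreated one, although the counting intervals of untreated A375 and treated 549 overlapped. The ratio was 208-fold in A498 (95.2 to 567), 19.3-fold in H1703 (10.3 to 40.7), 16.3-fold in 549 from a single count (2.51 to 688) and 2.71-fold in A375 (1.53 to 5.0). The log2 change was 4.41 ± 0.90 with an edgeR adjusted p of 0.0491. That call was lost with RLE scaling (adjusted p = 0.0519) and with the authors' log2 values (0.0553), and without 549 (0.147), A498 (0.113) or H1703 (0.101), and it held without A375, where the log2 change was 5.92 (0.00194). APRIL, the relative of BAFF encoded by TNFSF13, had fewer counts after treatment in 549 (34 and then 8) and A375 (13 and then 3) and more in A498 (81 and then 145) and H1703 (34 and then 68), with a log2 change of -0.21 ± 0.52 (edgeR adjusted p = 0.837). The BAFF receptor TNFRSF13C had at most 3 counts in any library.

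CSF1 rose from very unequal starting levels. It went from 45 to 169 counts in 549, from 203 to 434 in A375, from 1025 to 3023 in A498 and from 13 to 151 in H1703. Untreated levels differed 90.3-fold, from 1.67 CPM in H1703 to 151 CPM in A498, and treated levels 23.8-fold, from 16.9 to 401 CPM in the same lines. Untreated A498 was above every treated library of another line, so the arms overlapped although CSF1 was higher after treatment in each line. The log2 change was 1.86 ± 0.30 (edgeR adjusted p = 0.0189), a call that did not hold when 549 (0.104) or A498 (0.0652) was left out. The ratio was 10.1-fold in H1703 (5.72 to 19.4), where the untreated level was lowest, against 2.65-fold in A498 (2.47 to 2.85), 2.43-fold in A375 (2.05 to 2.88) and 4.09-fold in 549 (2.93 to 5.82). CSF1R, the receptor, had at most 1 count in any library, and IL34, its other ligand, had 17 in treated A498 and at most 2 elsewhere.

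EBI3 and IL12A, the cytokine subunits, were the 2 genes that were not higher in every treated line. EBI3 went from 67 to 469 counts in A498, a 6.30-fold ratio (4.87 to 8.27), but from 9 to 6 in 549, from 42 to 48 in A375 and from 8 to 13 in H1703, where each interval holds 1. Its log2 change over the lines was 1.08 ± 0.51 (edgeR adjusted p = 0.262), and without A498 it was 0.20. IL12A had 75 counts in all 8 libraries together and did not pass the filter. Its counts went from 2 to 7 in 549, from 5 to 4 in A375, from 9 to 35 in A498 and from 1 to 12 in H1703, and only the intervals of A498 (1.65 to 8.28) and H1703 (1.54 to 445) left out 1. When genes were kept at a CPM of 1 in 4 libraries, edgeR gave IL12A a log2 change of 1.62 ± 0.58 (adjusted p = 0.167). IL12B, which completes IL-12, and IL27, which completes IL-27 with EBI3, were at 0 in all 8 libraries. Of these pairs only the subunits of IL-35 thus had counts together, and each was highest in treated A498. IL12A-AS1, which shares 78 exonic bases with IL12A on the opposite strand, had 3 counts in treated A498, 1 in untreated A498 and 0 elsewhere.

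**Figure D3:**
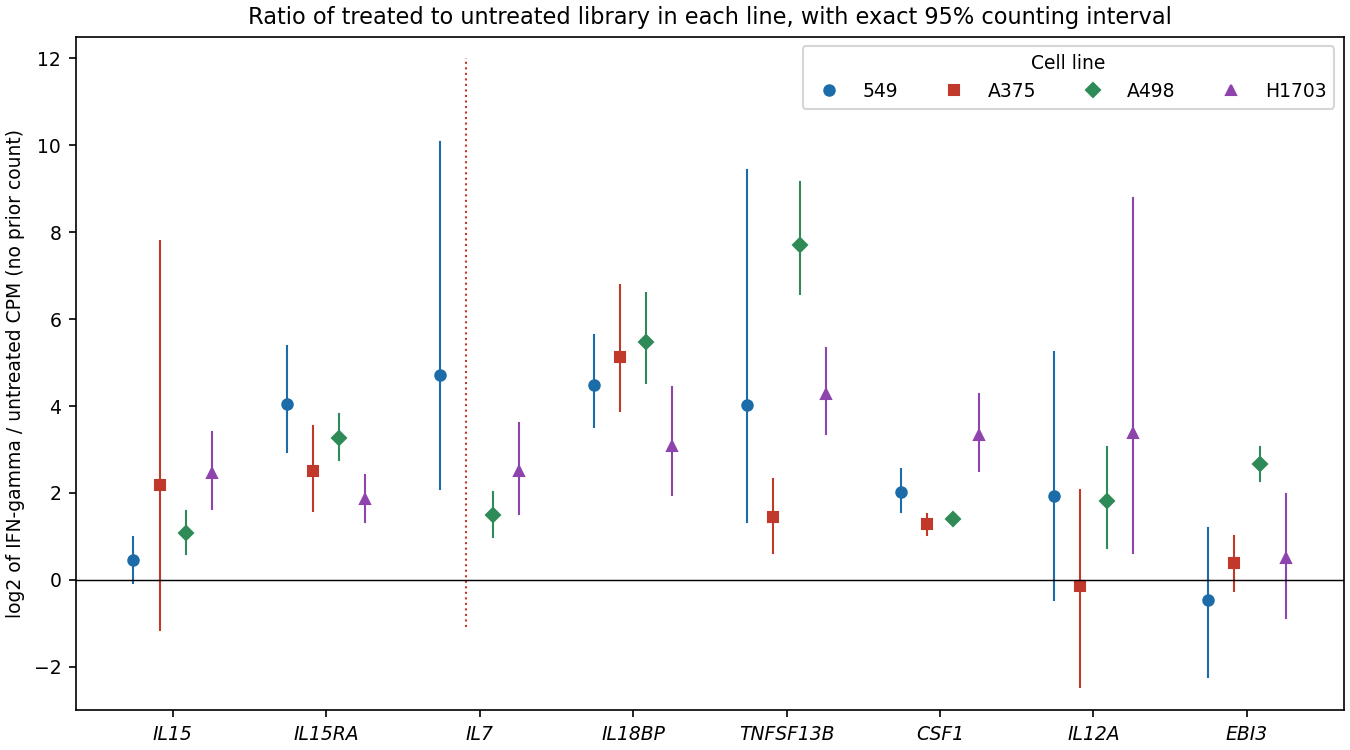
Ratio of the treated to the untreated library in each line (y axis, log2 of the CPM ratio, with no prior count); points are the ratio and bars its exact 95% binomial interval. The dotted bar stands for IL7 in A375, which had 0 untreated counts and so no ratio, and its upper end is unbounded. TNFSF13B in A498 is the highest point, and EBI3 lies clear of 0 in A498 alone.

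Counted by line, A498 had all 8 genes with an interval above 1, where 29.9% of all genes tested had one. H1703 had 7 (16.5% of all genes), 549 had 5 (28.0%) and A375 had 4 (31.8%). The 4 in A375 were IL15RA, IL18BP, TNFSF13B and CSF1, the same 4 genes that were called over the lines. The A375 libraries are part of the fit over the lines, so this match is not a separate result. A gene with few counts has a wide interval, so the numbers by line depend on level and depth. IL12A, counted among the 8, is not among the genes tested, and of the others all but CSF1 needed treated libraries to pass the filter. The numbers by line are therefore no support for a rise. The median log2 ratio of the 8 genes was 2.35 in 549, 2.29 in H1703, 2.12 in A498 and 1.27 in A375, where the median of all genes tested was between -0.01 and 0.00.

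Whether the response differed between lines was tested as an interaction in fits of all 13457 genes. No cytokine gene was called in any of the 5 fits (each line against the other 3, and both lung lines against the others), and nor was any other gene, so 0.0% is the background in each. At an unadjusted p under 0.05, which 485, 1153, 585, 418 and 603 of all genes met for 549, A375, A498, H1703 and the lung lines, the edgeR fits held 0 of the 7 tested genes for 549, 1 for A375, 2 each for A498 and H1703 and 1 for the lung lines. TNFSF13B had a log2 difference in change of 4.72 ± 1.10 for A498 against the other lines (edgeR adjusted p = 0.733) and of -4.49 ± 1.13 for A375 (edgeR adjusted p = 0.327). EBI3 had 2.44 ± 0.63 for A498 (edgeR adjusted p = 0.733), and CSF1 had 1.77 ± 0.54 for H1703 (edgeR adjusted p = 1.00). DESeq2 called TNFSF13B for A498 at an adjusted p of 0.045, and limma-voom called none of the 7. Over all genes limma-voom called 0 in each fit, and DESeq2 called 10, 61, 19, 14 and 7 for 549, A375, A498, H1703 and the lung lines. A call of 0 does not show that the lines responded alike.

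**Figure D4:**
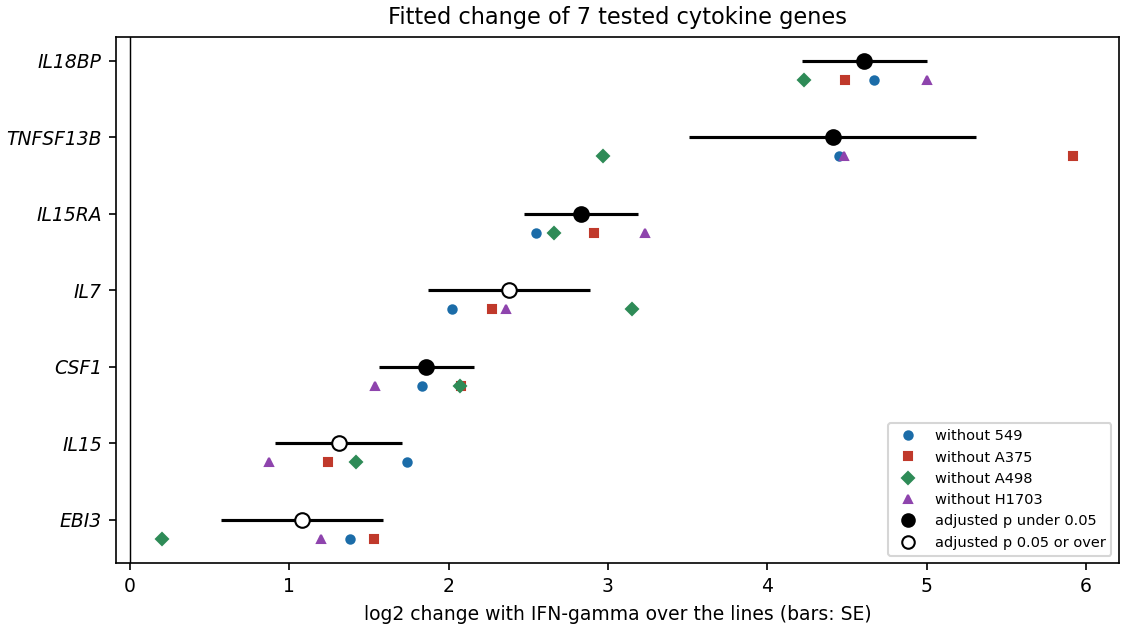
Fitted log2 change with IFN-gamma of the 7 tested genes (x axis), with the SE as a bar; filled circles are called at an adjusted p of 0.05 and small coloured marks below each give the value with that line left out. Leaving out A498 takes EBI3 to 0.20 and TNFSF13B to 2.97, and leaving out A375 takes TNFSF13B to 5.92.

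Against the spread of all genes, the tested cytokine genes lay in the upper tail by size of change. IL18BP and TNFSF13B ranked 22 and 25 of 13457, IL15RA 85, IL7 116, CSF1 189, IL15 360 and EBI3 511. EBI3, the lowest of them, was still within the upper 3.8% by fitted change, though not called. The genes were chosen with earlier results of these data known, and all but CSF1 needed treated libraries to pass the filter. The ranks therefore describe size of change and are no support for a rise.

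**Figure D5:**
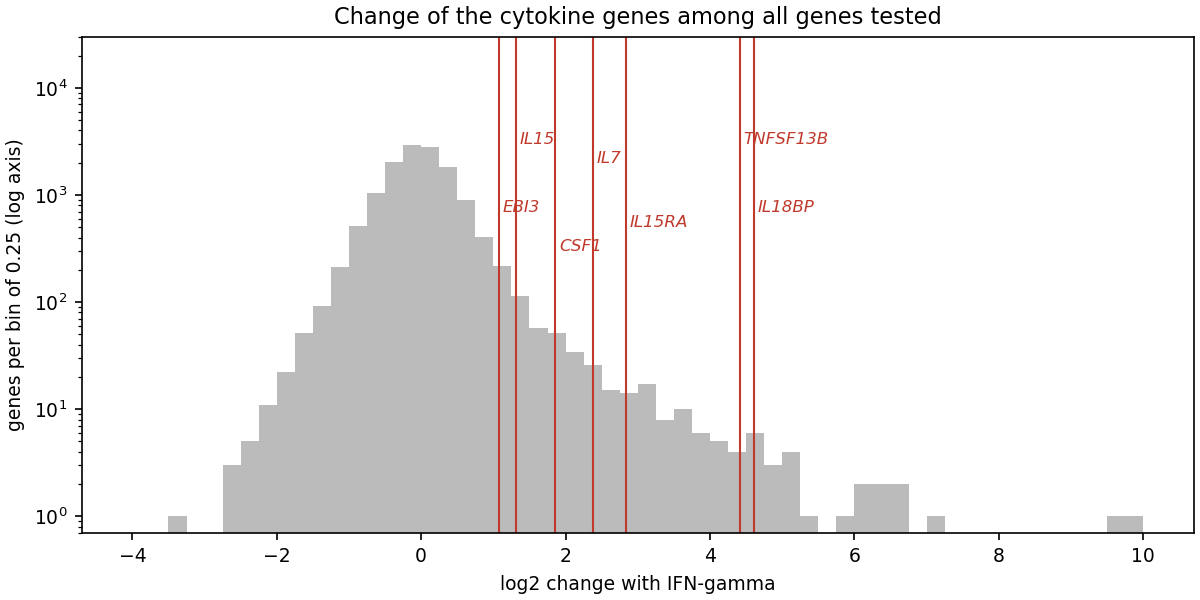
Histogram of the fitted log2 change of all 13457 genes tested (x axis; y axis, genes per bin on a log scale), with the 7 tested cytokine genes as red lines. All 7 lines lie to the right of the bulk of genes, from 1.08 for EBI3 to 4.61 for IL18BP.

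Other cytokines and receptors of the same families were read from lists of 48 further genes, of which 22 had under 10 counts in every library and 13 were tested. Of these 13, 1 was called higher and 0 lower, where 1.59% and 0.327% of all genes tested were. Their median log2 change was 0.53, and that of all genes tested was -0.02. The called gene was FLT3LG, which encodes the ligand that supports dendritic cell development. Its counts went from 34 to 116 in 549, from 82 to 180 in A375, from 58 to 298 in A498 and from 18 to 48 in H1703, higher in each treated library of a line (log2 change 1.68 ± 0.26, edgeR adjusted p = 0.0147). Without 549 or A498 it was not called (adjusted p = 0.0739 and 0.0987). GENCODE 29 places other transcripts of the same strand over 800 of its exonic bases, which the counting could share.

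The genes whose level followed each cytokine gene most closely over the 8 libraries were found by Pearson's r of log2 CPM among 13223 tested genes with at least 100 counts. The 8 values are pairs from 4 lines, so each r mixes line and treatment and is given as a description. IL18BP was nearest to UBD, a ubiquitin-like modifier (r = 0.983), GBP5 (0.969) and ITPRIP (0.966). TNFSF13B was nearest to PLSCR1 (0.969), HELZ2 (0.968) and the antiviral gene IFIT1 (0.962). IL15RA was nearest to NMI (0.995), GIGYF1 (0.989) and C5orf56 (0.978). IL7 was nearest to CCL5, a chemokine (0.965), SAR1A (0.965) and ANXA7 (0.962). IL15 was nearest to CLDN1, a tight junction gene (0.972), ELOVL7 (0.969) and VEGFC (0.968), each of which also had its lowest levels in A375. VEGFC, for instance, had 1 and 7 counts in A375 and 53 and 119 in 549. CSF1 was nearest to MYL5 (0.972), RAB18 (0.966) and HNF4G (0.964), and EBI3 to LSM8 (0.980), PI4K2A (0.979) and SGCB (0.974). Between the 8 genes themselves the highest r was 0.871 for CSF1 with EBI3, and IL15 with IL15RA had 0.55.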

How the data were processed

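The table that the authors deposited holds a raw count for each gene and library and, beside it, log2 normalized values whose scaling is not stated, per the file headers. The authors used hg19, Bowtie2 and edgeR, per the submitters' processing notes. The sources used here do not give the counting tool, annotation or use of strand. The labels name a poly(A) stranded kit and a 3′ kit without saying which applied, so levels are not compared between genes. Counts were summed by symbol, and for the authors' log2 values the row with the highest mean was taken (25737 rows, 286 symbols with several, 0 without a symbol, and 0 columns unused). Genes were kept by filterByExpr (minimum count 10, total 15), scaled by TMM and tested with edgeR 4.0.16 (R 4.3.3) across all genes, with cell line as a term since each line is in both arms (3 residual degrees of freedom). Within a line, the deviations of both libraries from their arm means correlated at 0.85 to 0.90. The labels name no replicate cultures, so p-values measure the spread of the treatment change between lines, together with counting error. An SE is the log2 change divided by the root of F. Log2 levels and per-line log2 ratios use a prior count of 2 and have no replicate check. Alternatives were RLE, upper quartile and library-size scaling, no filter, CPM 1 in 4 libraries, DESeq2 1.42.0, limma-voom (limma 3.58.1), the likelihood ratio test, no line term, the authors' log2 values, leaving out each line, and prior counts of 0.5 and 5. The method was also run on simulated data, with changes planted only in genes at a mean log2 CPM of at least 3. IL15 (2.81) and IL7 (2.28) lie below that level, so the simulation does not cover them. Its outcome is not reported here. The 8 genes, the lists and the motifs were chosen with earlier results of these data known. Besides the 8 genes, the text names called genes of 7 related lists, a set of direct partners, and the 3 genes nearest in pattern to each tested gene. Promoter sequences are from RefSeq and overlaps from GENCODE 29, and none of their coordinates was joined to the hg19 counts. Some checked genes are not reported here.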

Additional observations from a re-analysis of the deposited data

Results flagged for a closer look

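Levels in the 4 untreated libraries, levels in the 4 treated libraries and log2 ratios of the 4 lines were screened for a value standing apart, in 24 groups for the 8 genes. About 1 group in 20 is picked out by chance, and 1 was. Treated A375 had an IL15 level of -0.40 (log2 CPM with a prior count of 2, which lifts low levels), against 3.35 to 4.02 in the other treated lines. The level rests on 4 counts.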

How the results depend on the processing

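The number of the 8 genes called higher was 4, and it lay between 3 and 6 under other scalings, filters and tests that kept the line term. Over all genes, these settings called between 198 (authors' log2 values) and 1319, against 258 in the main fit. The 6 came with the likelihood ratio test, which called the 1319. Without a filter, with DESeq2 and with limma-voom 5 were called, beside 884, 1036 and 387 of all genes. The larger numbers thus came with settings that called more genes of any kind. Without the replicate block, that is without the cell line term, 0 of the 8 genes and 0 of all genes were called. Leaving out a line gave 2 to 4 (2 without 549 or A498). No log2 change reversed. Without the replicate block IL15RA (2.89, adjusted p = 0.882), IL18BP (4.80, 0.267), TNFSF13B (5.62, 0.92) and CSF1 (1.46, 1.00) lost their calls. TNFSF13B also lost its call with RLE scaling (4.40) and with the authors' log2 values (4.04). IL7 was gained without a filter (2.41), with DESeq2 (2.59), limma-voom (2.25), the likelihood ratio test (2.45) and the authors' values (2.39), and IL15 with the likelihood ratio test (1.32, adjusted p = 0.028). With a line left out, the log2 change ranged from 0.87 to 1.74 for IL15, 2.55 to 3.23 for IL15RA, 2.02 to 3.15 for IL7, 4.23 to 5.0 for IL18BP, 2.97 to 5.92 for TNFSF13B, 1.54 to 2.08 for CSF1 and 0.20 to 1.53 for EBI3. IL15RA and IL18BP were called in all 4 of these fits (highest adjusted p 0.0485 and 0.00778). The related genes called higher numbered 1, but 3 without a filter, 3 with DESeq2, 2 with limma-voom, 4 with the likelihood ratio test, 0 without the replicate block, and 0 to 2 with a line left out. Interaction fits called 1 of the genes with DESeq2, for A498. The cause was not tested. Per-line ratios stayed within their counting intervals under prior counts of 0.5 and 5, and 1 of them, CSF1 in A498, moved outside it with library size alone (1.29). With a prior count of 0.5, 1 of the 3 nearest genes of IL7 was shared. Counts under about 10 in an untreated library, as in 7 of the 8 genes, limit every ratio against it.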

Other observations

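Some genes of the related lists had line-restricted counts, and were chosen after their values were seen. TNFSF14, which encodes the ligand LIGHT of the TNF family, went from 3 to 226 counts in A375 and from 30 to 391 in A498, but from 8 to 10 in 549 and from 1 to 1 in H1703. Its log2 change over the lines was 3.50 ± 0.82 (edgeR adjusted p = 0.0734), and its difference between lung and other lines was -4.15 ± 1.22 (edgeR adjusted p = 0.969). TSLP, an IL-7-like cytokine, was at 0 in all 4 untreated libraries and reached 28 counts in treated A375 and 8 in treated A498, with 0 in both treated lung lines. IL12RB1, a receptor chain for IL-12, was low throughout, at 0, 3, 1 and 2 counts in the untreated libraries of 549, A375, A498 and H1703 and 3, 17, 13 and 6 in the treated libraries. IL21R went from 3 to 47 counts in A498 and had 17 and 14 in A375.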
